A study of Mus musculus with 48 samples.

Results

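The Toll-like receptors and the inflammasome belong to the innate immune system, and 10 genes of these pathways were followed here through remnant kidneys of mice. They are the receptors Tlr1, Tlr2, Tlr3, Tlr4 and Tlr7, the co-receptor Cd14, the adaptor Myd88, and the inflammasome genes Nlrp3, Pycard and Casp1. The genes were chosen by name, each as the probe set with 1 gene symbol that had the highest mean over 48 arrays, and all 10 were among the 13174 genes tested. Nlrp3 passed the filter on low values through 6 arrays, all of Nx kidneys, and is left out of the main counts and medians of changes after surgery. Counts of differences between strains or days include it, although it passed in none of them as fitted. Counts under alternative processing, out of 10 genes, include it too. Every value below is a deposited log2 value of 1 array, so a difference of 1 is a change of 2-fold. Levels of different genes come from different probe sets and are not compared.

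Expression was measured on Affymetrix mouse arrays with RNA of whole kidneys, 1 array per mouse. FVB mice, which the series describes as predisposed to kidney lesions, and C57BL/6 mice (written B6), described as not predisposed, had surgery at 9 weeks of age. Subtotal nephrectomy (written Nx), which leaves only part of the kidney mass, was set against a sham operation. Kidneys were taken 2, 28 or 53 days later, which gives 12 groups of strain, surgery and day with 4 mice each. No further allele or agent is named, and sham mice share the strain, age and day of the Nx mice they are compared with. Whole kidney mixes tubules, vessels, glomeruli and immune cells. In such RNA, fewer cells of a type and less RNA per cell cannot be told apart. Changes come from 1 limma fit over all 48 arrays with p-values adjusted over all 13174 genes and a threshold of 0.05. The p-values measure the spread between these animals, estimated for each gene over all 12 groups together. For Tlr7 in FVB at day 2 the SD was 0.88 in Nx and 0.03 in sham. With such unequal groups the p-value can understate the spread of the more variable group.

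Toll-like receptors recognise conserved molecules of microbes and molecules released by injured tissue. Tlr1, Tlr2 and Tlr4 sit at the cell surface, where Cd14 hands ligands to them, whereas Tlr3 and Tlr7 bind RNA in endosomes. Most of these receptors signal through Myd88 to NF-kB, while Tlr3 uses another adaptor. Inflammasomes are assembled from a sensor such as Nlrp3, the adaptor Pycard (also called ASC) and the protease caspase-1, encoded by Casp1, which cuts the precursors of interleukin-1 beta and interleukin-18. In kidney, these genes are expressed by resident and infiltrating phagocytes, and several of them by tubular cells too.

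The arrays were of similar overall level, with medians between 3.17 and 3.44. Over the arrays, the mean of 6 proximal tubule markers ran from 11.26 to 13.22 and that of 5 markers of the loop of Henle and distal tubule from 10.22 to 13.15, while the podocyte marker Nphs1 read 2.35 to 5.46. A single lowest value (2.20) held 32.1% of all values, and a gene near it has no measured level. For some genes a higher value recurs to 3 decimals on 3 or more arrays. Where it lies within 0.15 of the lowest value of the gene, as for Tlr7, folds are given as lower bounds against it. For Tlr2, Tlr4, Myd88 and Casp1 some arrays lie further under the recurring value (6.22, 5.67, 6.70 and 5.20), and what it marks is not given in the sources used here. For these, where all 4 sham arrays lie at or under it, the fold of the Nx mean over it is given beside the fitted change. The number of arrays, 4 per group, limits the precision. Some arrays stood apart across the 10 genes. Mouse 3 of B6 Nx day 28 was the highest of its group for 9 genes, mouse 7 of FVB Nx day 28 for 10, mouse 2 of FVB Nx day 2 for 9 and mouse 8 of FVB Nx day 53 for 8. In B6 Nx day 2, mouse 9 was the lowest for 8 genes. The mean of 12 pancreatic enzyme transcripts lay above 5 on 16 of 24 Nx arrays and on 2 of 24 sham arrays. Its part in the changes of the 10 genes was not tested. Calls after surgery that were lost without those arrays, and results that reversed, are given below. Other calls that changed without them are not all named.

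The promoters of 7 of the 10 genes (not Cd14, Tlr4 and Tlr7), in 9 windows from 250 bases before to 50 bases after an annotated start, were taken from RefSeq (build GRCm38.p6) and searched on both strands for motifs of factors that act in these pathways. The share of all 32851 such windows of the mouse genome stands beside each motif. The NF-kB consensus was found in 3 of the 9 windows and in 8.46% of all windows. The core GAGGAA of the myeloid factor PU.1 was found in 4 of 9 and in 28.3% of all. The interferon-gamma element TTCNNNGAA was found in 2 of 9 and in 8.3%, and the core GAAANNGAA of the interferon response element in 1 of 9 and in 8.56%. The windows of Tlr1, Tlr2, Pycard, Casp1 and Myd88 are shown, with matches in capitals. Those of Tlr3, whose changes were small, and of Nlrp3, which had no measured level, are not. Tlr1 has 2 annotated starts on the minus strand. The upstream window (chr5:64933509-64933808) holds a PU.1 core from base -23, counted from the start at 1, and the downstream one (chr5:64932650-64932949) an interferon-gamma element from base -228. Tlr2 (chr3:83841559-83841858, minus strand) holds NF-kB matches from base -173 and from base -8. The first of them is a run in which 2 matches overlap. Pycard (chr7:127993818-127994117, minus strand) holds 1 PU.1 core on its opposite strand, from base -42. Casp1 (chr9:5298267-5298566, plus strand) holds the same core on its opposite strand, from base -108. Myd88 (chr9:119339969-119340268, minus strand) holds an interferon-gamma element from base -46 that overlaps the interferon response core from base -40. These matches describe letters in the windows, and no binding was measured.
Tlr1, upstream start: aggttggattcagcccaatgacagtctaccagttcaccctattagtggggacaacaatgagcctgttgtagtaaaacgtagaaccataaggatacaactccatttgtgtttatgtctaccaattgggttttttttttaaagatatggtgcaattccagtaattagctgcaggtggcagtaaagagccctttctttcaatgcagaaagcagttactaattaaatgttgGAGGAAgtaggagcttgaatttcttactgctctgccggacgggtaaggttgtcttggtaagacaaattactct
Tlr1, downstream start: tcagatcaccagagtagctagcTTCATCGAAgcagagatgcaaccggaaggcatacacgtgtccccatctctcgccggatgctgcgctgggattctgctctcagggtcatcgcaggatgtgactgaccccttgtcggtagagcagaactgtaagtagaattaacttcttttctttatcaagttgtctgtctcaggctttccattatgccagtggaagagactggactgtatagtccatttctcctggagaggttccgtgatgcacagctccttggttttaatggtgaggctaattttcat
Tlr2: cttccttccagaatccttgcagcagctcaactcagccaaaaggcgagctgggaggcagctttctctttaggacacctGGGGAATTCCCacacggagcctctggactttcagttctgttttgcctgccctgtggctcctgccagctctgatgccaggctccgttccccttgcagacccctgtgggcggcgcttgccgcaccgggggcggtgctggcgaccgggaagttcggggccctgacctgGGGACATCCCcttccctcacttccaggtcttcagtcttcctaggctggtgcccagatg
Pycard: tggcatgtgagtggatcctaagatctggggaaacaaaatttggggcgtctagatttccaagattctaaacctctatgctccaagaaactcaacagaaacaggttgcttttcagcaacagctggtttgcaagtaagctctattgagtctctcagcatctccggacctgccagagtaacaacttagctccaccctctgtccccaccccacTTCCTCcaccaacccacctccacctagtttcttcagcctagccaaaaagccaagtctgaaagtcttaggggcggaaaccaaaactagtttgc
Casp1: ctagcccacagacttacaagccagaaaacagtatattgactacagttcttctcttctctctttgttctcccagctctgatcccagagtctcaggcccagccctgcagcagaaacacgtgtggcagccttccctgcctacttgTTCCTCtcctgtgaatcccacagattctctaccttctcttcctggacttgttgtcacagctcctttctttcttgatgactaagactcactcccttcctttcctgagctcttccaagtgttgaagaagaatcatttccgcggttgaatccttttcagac
Myd88: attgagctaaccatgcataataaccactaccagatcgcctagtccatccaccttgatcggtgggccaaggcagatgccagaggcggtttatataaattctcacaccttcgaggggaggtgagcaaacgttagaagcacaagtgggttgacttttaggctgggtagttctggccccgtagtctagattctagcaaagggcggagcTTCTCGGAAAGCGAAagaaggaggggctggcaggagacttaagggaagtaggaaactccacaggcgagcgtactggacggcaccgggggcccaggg

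At day 2 after nephrectomy the 9 genes other than Nlrp3 were higher than after sham surgery in both strains, and by day 53 the strains had parted. In FVB kidneys 9 of the 9 rose at day 2 (24.8% of all genes were called higher), 6 at day 28 (7.35%) and 9 at day 53 (25.9%). In B6 kidneys 9 rose at day 2 (20.2%), 7 at day 28 (9.85%) and 5 at day 53 (8.03%). None of them fell in any of the 6 comparisons. The median change over the 9 genes was 1.96, 0.59 and 1.67 in FVB at days 2, 28 and 53, and 1.21, 0.77 and 0.60 in B6. Over all genes tested the medians lay between -0.03 and -0.01. In FVB all Nx arrays lay above all sham arrays for 9, 6 and 8 of the 9 genes at the 3 days, against 20.2%, 9.2% and 22.2% of all genes. In B6 this held for 9, 6 and 6 genes, against 18.2%, 9.86% and 11.3%.

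Some of these calls rest on arrays with pancreatic transcripts, without which 1 Nx array per group is left at days 2 and 28 and 2 at day 53, and the lone array is assumed to vary like the other groups. Without them the FVB calls of Tlr3 (0.47, adjusted p = 0.117), Myd88 (0.60, 0.0893) and Nlrp3 (0.00, 1) were lost at day 2, and those of Tlr4 (0.54, 0.575), Cd14 (1.45, 0.0804), Myd88 (0.27, 0.749) and Pycard (0.49, 0.143) at day 28. In B6, Tlr3 (0.58, 0.0656), Tlr4 (0.43, 0.47) and Myd88 (0.43, 0.278) lost their calls at day 2, Tlr3 (0.60, 0.0772) at day 28, and Tlr2 (0.57, 0.118) and Cd14 (0.73, 0.204) at day 53. When only the arrays of the groups compared were fitted, 1 of the 10 genes passed in B6 at day 28 in place of 7. Mouse 3 of that Nx group, the highest for 9 genes, was the only one of its 4 arrays without pancreatic transcripts.

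**Figure D1:**
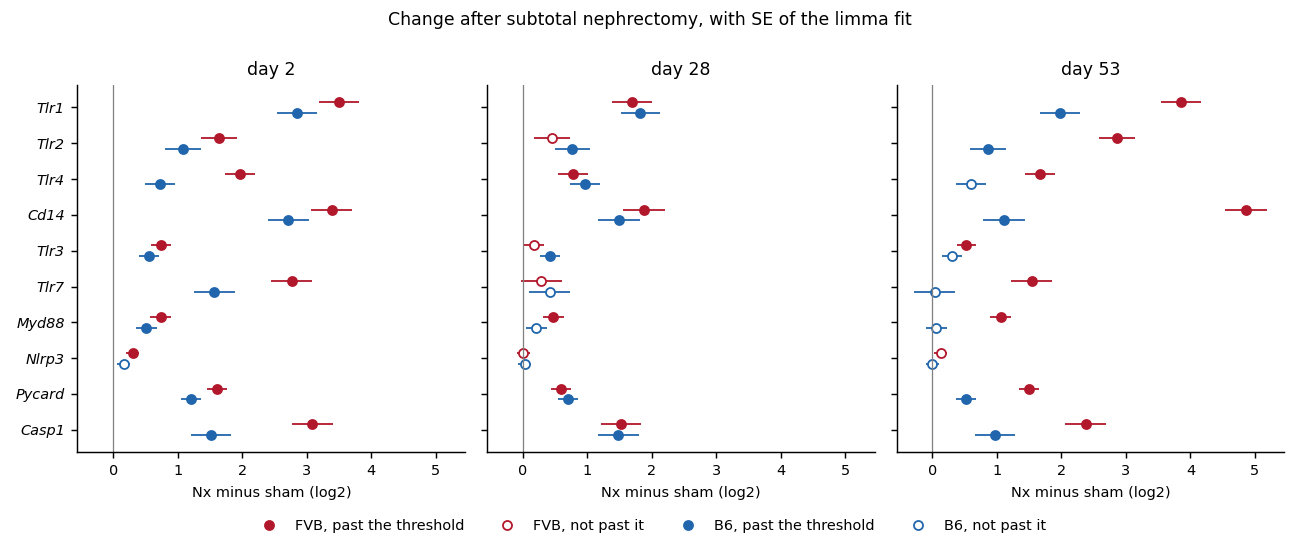
Change of each gene after nephrectomy (Nx mean minus sham mean, log2, horizontal axis) at day 2, 28 and 53, with FVB in red and B6 in blue, bars showing the SE of the limma fit and filled points the changes past the threshold. At day 53 the FVB point of Cd14 lies at 4.86 and the B6 point at 1.11.

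Cd14, the co-receptor that presents lipopolysaccharide and other ligands to Toll-like receptors, showed the highest fold change of the 10 genes at day 53 in FVB. The 4 FVB Nx arrays of day 53 read 11.04, 11.24, 11.57 and 11.78, and the 4 FVB sham arrays 5.82, 6.62, 6.75 and 7.00. In B6 at day 53 the Nx arrays read 7.27, 7.28, 7.79 and 8.27, and the sham arrays 6.12, 6.16, 6.77 and 7.13. Nx and sham did not overlap in either strain, but all B6 Nx arrays lay far under all FVB Nx arrays. The rise was 29.1-fold in FVB (4.86 ± 0.32 on the log2 scale, SE; adjusted p = 2.27e-15) and 2.16-fold in B6 (1.11 ± 0.32; adjusted p = 0.0145). The B6 call was lost without Nx mouse 1 (0.91, adjusted p = 0.0873), sham mouse 3 (0.98, 0.0585) or sham mouse 5 (0.97, 0.0639).

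At day 2 the FVB Nx arrays read 10.15, 10.29, 10.89 and 10.95 for Cd14 and the sham arrays 6.90, 6.90, 7.34 and 7.58. The B6 Nx arrays of that day read 8.70, 9.50, 9.67 and 9.78, against 6.38, 6.44, 6.97 and 6.99 in sham. Cd14 was thus raised without overlap in both strains, 10.5-fold in FVB (3.39 ± 0.32) and 6.57-fold in B6 (2.72 ± 0.32). At day 28 the rise was smaller, 3.69-fold in FVB (1.88 ± 0.32; adjusted p = 4.97e-05) and 2.81-fold in B6 (1.49 ± 0.32; adjusted p = 0.000783). The B6 Nx arrays of day 28 read 7.36, 7.42, 7.55 and 8.78, the last being mouse 3, without which the change was 1.16 (adjusted p = 0.0136).

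Tlr2, the receptor for bacterial lipoproteins, had its highest group mean in FVB Nx at day 53, as Cd14 did. There the Nx arrays read 8.82, 8.90, 9.11 and 9.65, and the sham arrays 6.01, 6.15, 6.43 and 6.43. At day 2 the FVB Nx arrays read 7.39, 7.70, 7.97 and 8.24, against 6.00, 6.00, 6.22 and 6.53 in sham. Every Nx array of day 53 lay above every Nx array of day 2. The rise was 7.27-fold at day 53 (2.86 ± 0.28; adjusted p = 2.81e-11) and 3.11-fold at day 2 (1.64 ± 0.28; adjusted p = 3.79e-06). At day 28 the FVB Nx arrays read 6.09, 6.22, 6.55 and 7.65 and overlapped sham, and the change (0.46 ± 0.28) did not pass (adjusted p = 0.292).

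In B6, Tlr2 rose 2.13-fold at day 2 (1.09 ± 0.28; adjusted p = 0.0014). All 12 B6 sham arrays of Tlr2 lay at or under the recurring 6.22, over which the B6 Nx means stood 1.5-fold, 1.18-fold and 1.25-fold at days 2, 28 and 53. The changes at day 28 (0.77 ± 0.28; adjusted p = 0.046) and day 53 (0.86 ± 0.28; adjusted p = 0.0298) passed narrowly. The B6 Nx arrays of day 53 read 6.21, 6.31, 6.78 and 6.88 and the sham arrays 5.47, 5.71, 5.74 and 5.84, without overlap. The day 28 call was lost without Nx mouse 3 (0.48, adjusted p = 0.298), and without sham mouse 1, 3, 5 or 6 (0.63 to 0.85, adjusted p between 0.053 and 0.145). The day 53 call was lost without Nx mouse 1 (0.78) or 7 (0.75), or sham mouse 1, 3 or 6 (0.78 to 0.88), with adjusted p between 0.0512 and 0.103.

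Tlr1, which pairs with Tlr2 on triacylated lipoproteins, had the highest fold change of the 10 genes at day 2 in both strains. In FVB the Nx arrays read 7.42, 7.63, 7.76 and 7.97 at day 2 and 6.60, 7.33, 7.37 and 7.71 at day 53. The sham arrays read 3.84, 4.07, 4.40 and 4.47 at day 2 and 3.25, 3.34, 3.43 and 3.59 at day 53. Nx and sham were far apart on both days. The rise was 11.3-fold at day 2 (3.50 ± 0.31), 3.24-fold at day 28 (1.70 ± 0.31) and 14.4-fold at day 53 (3.85 ± 0.31). In B6 it was 7.21-fold at day 2 (2.85 ± 0.31), 3.54-fold at day 28 (1.82 ± 0.31) and 3.94-fold at day 53 (1.98 ± 0.31). The largest adjusted p of these 6 was 0.00011, and Nx and sham did not overlap in any of them. In B6 Nx at day 28, mouse 3 read 7.53 and the others 5.80 to 6.69, and without it the change was 1.48 (adjusted p = 0.000784).

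Tlr4, the receptor that answers lipopolysaccharide together with Cd14 and Ly96, rose on all 3 days in FVB. At day 2 its FVB Nx arrays read 7.00, 7.55, 7.56 and 7.69 and the sham arrays 5.11, 5.56, 5.60 and 5.67. On day 53 the Nx arrays read 7.24, 7.25, 7.31 and 7.69 and the sham arrays 5.11, 5.59, 5.90 and 6.20. The groups stood apart on both days, with a rise of 3.89-fold at day 2 (1.96 ± 0.23; adjusted p = 3.88e-09) and 3.19-fold at day 53 (1.67 ± 0.23; adjusted p = 1.05e-07). At day 2 all 4 sham arrays lay at or under the recurring 5.67, over which the Tlr4 Nx mean stood 3.42-fold. The FVB change at day 28 was 0.78 ± 0.23 (adjusted p = 0.0178) and lost its call without Nx mouse 7 (0.65, adjusted p = 0.0882) or sham mouse 3 (0.64, 0.0877).

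In B6, Tlr4 rose at day 2 (0.73 ± 0.23; adjusted p = 0.01) and day 28 (0.96 ± 0.23; adjusted p = 0.00273). The day 2 call was lost without Nx mouse 11 (0.53, adjusted p = 0.0777). The B6 Nx arrays of day 53 read 6.18, 6.23, 6.28 and 6.79 and lay above the sham arrays at 5.67, 5.67, 5.73 and 6.00, yet the change of 0.60 ± 0.23 did not pass (adjusted p = 0.0784). The other 2 kept probe sets of Tlr4 passed in FVB at day 2 (1.88 and 2.67) and day 53 (1.76 and 2.20). They were positive without passing on the other surgery contrasts.

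**Figure D2:**
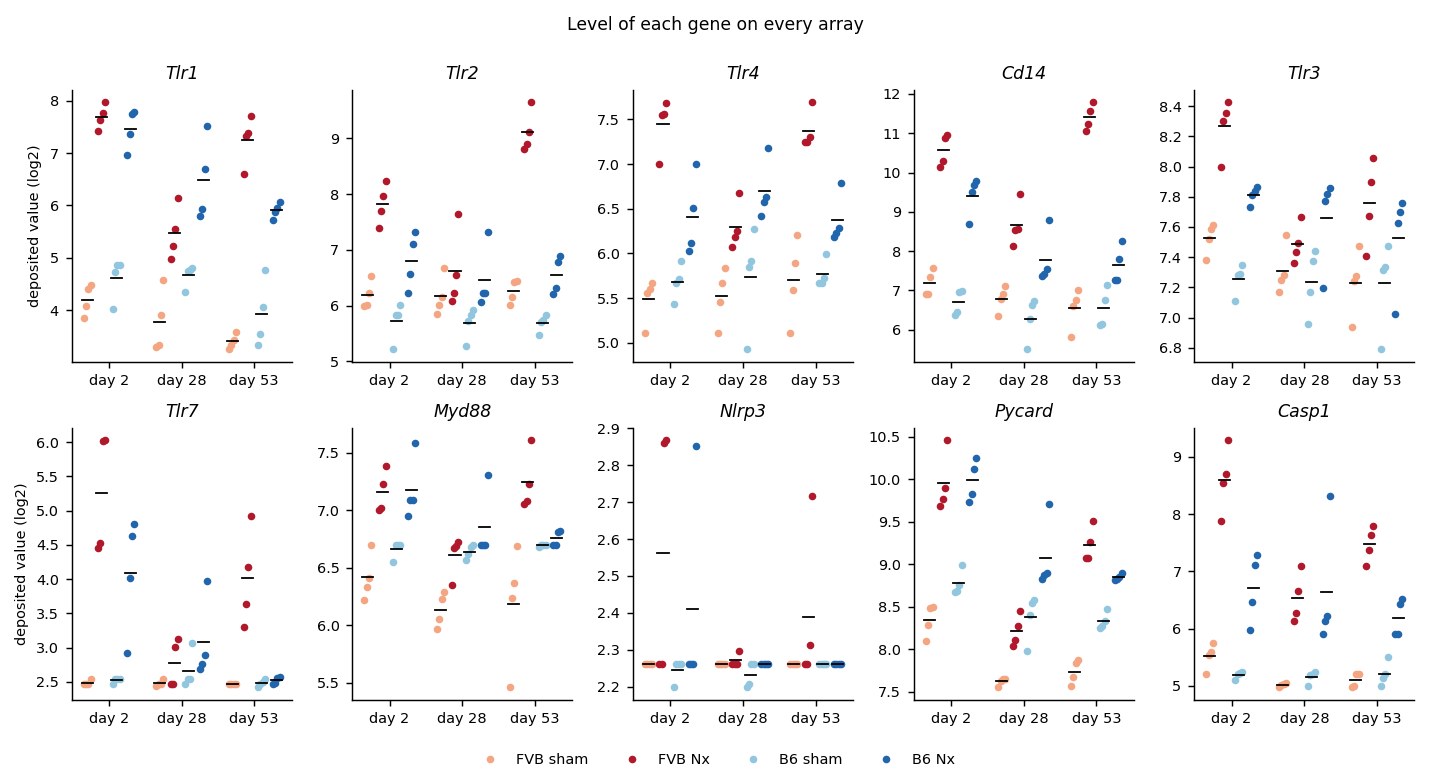
Deposited log2 value (vertical axis, a separate scale for each gene) of every array for the 10 genes, grouped by day, with FVB in orange (sham) and red (Nx), B6 in light blue (sham) and dark blue (Nx), and black lines at the mean of 4 arrays. Cd14 and Tlr2 stand highest in FVB Nx at day 53, whereas Casp1 and Tlr7 stand highest in FVB Nx at day 2.

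Tlr3 and Tlr7 sense double-stranded and single-stranded RNA inside endosomes, and the changes of Tlr3 were among the smallest. In FVB at day 2 the Tlr3 Nx arrays read 8.00, 8.30, 8.36 and 8.42 and the sham arrays 7.38, 7.52, 7.59 and 7.62, a rise of 1.67-fold without overlap (0.74 ± 0.15; adjusted p = 8.07e-05). The day 53 rise was 0.53 ± 0.15 (adjusted p = 0.00356) with overlapping groups, and at day 28 the change of 0.18 ± 0.15 did not pass (adjusted p = 0.497). In B6 Tlr3 rose at day 2 (0.56 ± 0.15; adjusted p = 0.00304) and narrowly at day 28 (0.42 ± 0.15; adjusted p = 0.0472). The day 28 call was lost without Nx mouse 3, 4 or 5 (0.36 to 0.39) or sham mouse 1 or 5 (0.40 and 0.33), with adjusted p from 0.0965 to 0.183. At day 53 the B6 change of 0.30 ± 0.15 did not pass (adjusted p = 0.206) but passed without Nx mouse 7 (0.47, adjusted p = 0.036). A second Tlr3 probe set gave 0.82, 0.13 and 0.64 in FVB and 0.48, 0.39 and 0.23 in B6 at the 3 days.

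Tlr7 had no measurable level in sham kidneys. All 12 FVB sham arrays and 11 of 12 B6 sham arrays lay at or under 2.54, among values that recur on many arrays, and the other B6 sham array read 3.07. In FVB at day 2 the Nx arrays read 4.46, 4.53, 6.02 and 6.03, which is at least 6.57-fold above the recurring values (fitted change 2.77 ± 0.32; adjusted p = 1.64e-09). In B6 at day 2 they read 2.92, 4.02, 4.63 and 4.80, at least 2.93-fold higher (1.57 ± 0.32; adjusted p = 9.29e-05). Tlr7 thus became measurable in both strains at day 2, with a wide spread between mice. The FVB Nx arrays of day 53 read 3.30, 3.63, 4.18 and 4.93, at least 2.77-fold higher (1.54 ± 0.32; adjusted p = 7.55e-05), while the B6 Nx arrays read 2.47, 2.48, 2.55 and 2.58 and overlapped sham (0.04 ± 0.32; adjusted p = 1). At day 28 neither strain passed (0.29 and 0.42, adjusted p = 0.624 and 0.399).

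Myd88, the adaptor shared by most Toll-like receptors and the interleukin-1 receptor, changed modestly. In FVB at day 53 the Nx arrays read 7.06, 7.08, 7.23 and 7.61 and the sham arrays 5.46, 6.24, 6.37 and 6.68, a fitted rise of 2.08-fold without overlap (1.06 ± 0.16; adjusted p = 6.97e-07). At day 2 the fitted rise was 1.67-fold (0.74 ± 0.16; adjusted p = 0.000183). All 24 sham arrays of Myd88 lay at or under 6.70, a value shared by 1 FVB sham, 7 B6 sham and 5 B6 Nx arrays. The FVB Nx means stood 1.37-fold over it at day 2 and 1.46-fold at day 53, and the B6 Nx mean 1.39-fold at day 2. The FVB change at day 28 (0.47 ± 0.16; adjusted p = 0.0405) lost its call without Nx mouse 3, 7 or 8, or sham mouse 1, 2 or 3 (0.42 to 0.51, adjusted p between 0.0523 and 0.114), and after shifting arrays to a common median (0.42, 0.0503). In B6 Myd88 rose at day 2 (0.52 ± 0.16; adjusted p = 0.00905), a call lost without Nx mouse 5 (0.38, adjusted p = 0.0679). It did not pass in B6 at day 28 (0.21 ± 0.16; adjusted p = 0.41) or day 53 (0.06 ± 0.16; adjusted p = 0.901). In B6 Nx at day 28, 3 arrays read 6.70 and mouse 3 read 7.31.

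Nlrp3, the sensor that gives the best studied inflammasome its name, lay at or near the lowest values in all groups. Only 6 of 48 arrays were above the filter value of 2.28, and all 6 were of Nx kidneys. In FVB Nx at day 2, mice 2 and 5 read 2.87 and 2.86, and mice 1 and 4 read 2.26, as did all 4 sham arrays. The change of 0.30 ± 0.10 passed (adjusted p = 0.0123), but the groups overlapped and the call rests on those 2 arrays. It was lost without mouse 2 (0.20, adjusted p = 0.108) or mouse 5 (0.20, 0.0983), after shifting arrays to a common median (0.13, 0.294), with array weights (0.22, 0.0635) and with only the arrays compared (0.30, 0.16). The other arrays above the filter value were mouse 3 of B6 Nx day 2 (2.85), mouse 10 of FVB Nx day 53 (2.72) and mouse 8 (2.31) there, and mouse 7 of FVB Nx day 28 (2.30). No change of Nlrp3 passed in the other 5 comparisons.

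Pycard, the adaptor that links sensors to caspase-1, rose in all 6 comparisons. In FVB the Nx arrays read 9.69, 9.77, 9.90 and 10.46 at day 2 and 9.07, 9.07, 9.26 and 9.51 at day 53. The FVB sham arrays read 8.09, 8.28, 8.49 and 8.50 at day 2 and 7.57, 7.67, 7.83 and 7.87 at day 53. Nx and sham did not overlap, and the rise was 3.06-fold at day 2 (1.61 ± 0.16), 1.51-fold at day 28 (0.59 ± 0.16) and 2.81-fold at day 53 (1.49 ± 0.16). In B6 Pycard rose 2.31-fold at day 2 (1.21 ± 0.16), 1.63-fold at day 28 (0.70 ± 0.16) and 1.43-fold at day 53 (0.52 ± 0.16; adjusted p = 0.0186). The B6 Nx arrays of day 53 read 8.81, 8.83, 8.85 and 8.90 and the sham arrays 8.25, 8.27, 8.33 and 8.47, close within each group and apart between them. At day 28 mouse 3 of B6 Nx read 9.72 and the others 8.82 to 8.90, and without it the change was 0.49 (adjusted p = 0.0201). A second probe set of Pycard lay among recurring low values on most arrays and gave changes between 0.00 and 0.18, of which only that of B6 day 2 passed (adjusted p = 0.00709).

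Casp1, which encodes the protease of the inflammasome, was the inflammasome gene with the largest rise. In FVB at day 2 the Nx arrays read 7.88, 8.55, 8.71 and 9.29, and the sham arrays 5.20, 5.54, 5.59 and 5.75. The FVB Nx arrays of day 53 read 7.09, 7.37, 7.63 and 7.80 and the sham arrays 4.97, 5.00, 5.20 and 5.20. Every FVB Nx array lay more than 1 unit above every FVB sham array of its day on both days. The rise was 8.49-fold at day 2 (3.09 ± 0.31; adjusted p = 1.09e-10), 2.87-fold at day 28 (1.52 ± 0.31; adjusted p = 0.000554) and 5.20-fold at day 53 (2.38 ± 0.31; adjusted p = 3.22e-08). The FVB sham arrays of days 28 and 53 lay at or under the recurring 5.20, over which the Casp1 Nx means stood 2.53-fold and 4.82-fold.

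In B6 the Casp1 Nx arrays of day 2 read 5.98, 6.47, 7.11 and 7.29 and the sham arrays 5.11, 5.21, 5.22 and 5.24, a rise of 2.87-fold (1.52 ± 0.31; adjusted p = 0.000122). At day 28 they read 5.90, 6.14, 6.21 and 8.32. The last is mouse 3, which lay above every other B6 array, and without it the change fell from 1.48 ± 0.31 (adjusted p = 0.00062) to 0.93 (adjusted p = 0.00936). The day 53 change was 0.97 ± 0.31 (adjusted p = 0.0295) without overlap. That call was lost without Nx mouse 1 (0.86) or 7 (0.89), or sham mouse 3, 5 or 6 (0.90 to 0.97), with adjusted p from 0.0587 to 0.104.

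Whether FVB and B6 differed in their response to nephrectomy was tested directly at each day. At day 2 it passed for 2 of the 10 genes, both larger in FVB (2.27% of all genes were called higher in FVB). The difference was 1.57 ± 0.44 for Casp1 (adjusted p = 0.0332) and 1.23 ± 0.33 for Tlr4 (adjusted p = 0.0228). Both calls were lost without any 1 of 5 arrays, namely B6 Nx mouse 3 or 9, FVB Nx mouse 2, or sham mouse 4 of either strain, with differences of 1.10 to 1.15 for Tlr4 and 1.32 to 1.57 for Casp1. Casp1 also lost its call without B6 sham mouse 1, 2 or 5 or FVB sham mouse 1 (1.46 to 1.60, adjusted p up to 0.0715). The 2 other kept probe sets of Tlr4 gave 1.26 (adjusted p = 0.0695) and 1.54 (adjusted p = 0.263) and did not pass. Tlr7 did not pass at day 2 (1.20 ± 0.45, adjusted p = 0.118) but did without FVB Nx mouse 5 (1.47, adjusted p = 0.0375). At day 28 the difference passed for 0 of the 10 genes in limma, and 0 of them reached an unadjusted p under 0.05 (0.0607% of all genes were called higher in FVB). The differences ran from -0.31 for Tlr2 to 0.39 for Cd14. Without the arrays with pancreatic transcripts, 1 Nx array per strain is left at this day. There the effect was smaller in FVB for Tlr2 (-1.60), Tlr7 (-1.44), Casp1 (-2.07) and Pycard (-0.91). Under the other alternatives none of the 10 passed.

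At day 53 the Nx effect was larger in FVB for 8 of the 10 genes (14.2% of all genes were called higher in FVB). The difference was 3.75 ± 0.46 for Cd14 (adjusted p = 9e-08), 2.00 ± 0.39 for Tlr2 (adjusted p = 0.000151), 1.87 ± 0.44 for Tlr1 (adjusted p = 0.00106) and 1.50 ± 0.45 for Tlr7 (adjusted p = 0.00953). It was 1.40 ± 0.44 for Casp1, 1.07 ± 0.33 for Tlr4, 0.99 ± 0.23 for Myd88 and 0.97 ± 0.22 for Pycard, with adjusted p between 0.000812 and 0.0144. In B6 itself Tlr4, Tlr7 and Myd88 did not pass at day 53. For Myd88 the sham means were 6.19 in FVB and 6.69 in B6, both under the recurring 6.70, and the Nx means lay 0.54 and 0.06 above it. The 2 other probe sets of Tlr4 gave 1.57 (adjusted p = 0.00304) and 1.60 (adjusted p = 0.104), and the second probe set of Pycard, at recurring low values, gave 0.01 (adjusted p = 0.941). These 8 calls held without each of the 16 arrays of the comparison in turn, where the largest adjusted p was 0.0428, for Tlr4. The differences of Tlr3 (0.23 ± 0.22; adjusted p = 0.482) and Nlrp3 (0.13 ± 0.15; adjusted p = 0.578) did not pass.

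**Figure D3:**
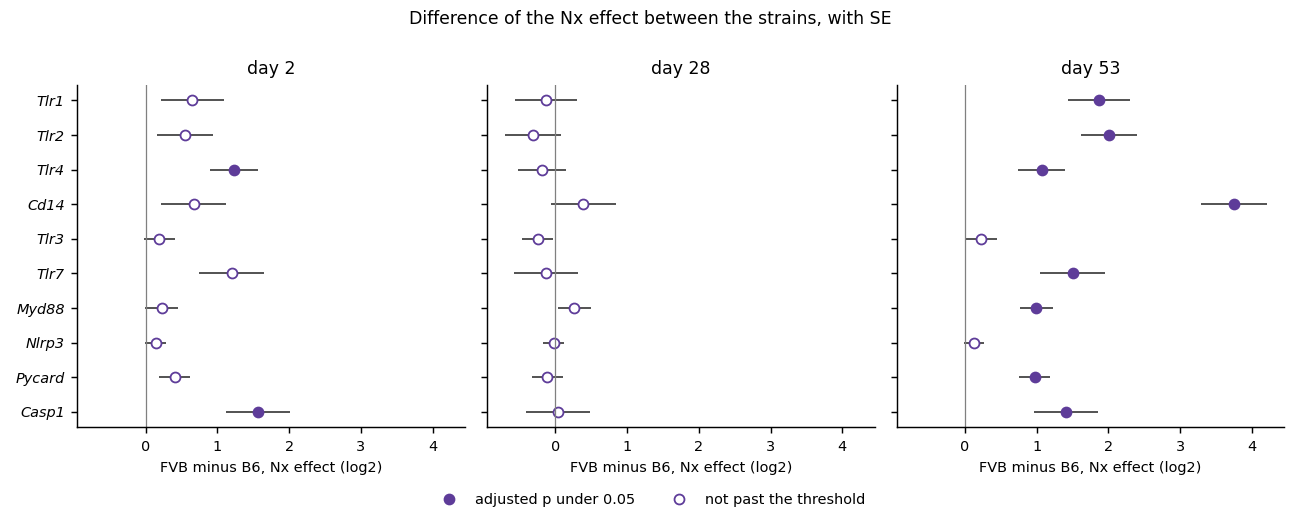
Difference between FVB and B6 of the change after nephrectomy (log2, horizontal axis) for each gene at day 2, 28 and 53, with bars for the SE of the limma fit and filled points past the threshold. Filled points number 2 at day 2, 0 at day 28 and 8 at day 53, where Cd14 lies at 3.75.

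The course over time was tested by setting the effect at each day against that of the day before it in the series. In FVB the effect was smaller at day 28 than at day 2 for 7 of the 10 genes (12.5% of all genes were called lower). It fell by 2.48 for Tlr7, 1.80 for Tlr1, 1.57 for Casp1, 1.51 for Cd14, 1.19 for Tlr4, 1.18 for Tlr2 and 1.02 for Pycard, with adjusted p between 7.69e-05 and 0.0233. The Tlr2 call was lost without Nx mouse 2 of day 2, Nx mouse 2 or 3 of day 28 or sham mouse 4 of day 28 (-1.05 to -1.0, adjusted p up to 0.068). Tlr3 (-0.56, adjusted p = 0.0522) passed without Nx mouse 1 of day 2 or Nx mouse 7 or sham mouse 2 of day 28 (-0.65, -0.62 and -0.61). Nlrp3 (-0.29, adjusted p = 0.14) passed without Nx mouse 1 or 4 of day 2 (-0.39 each), and Myd88 did not pass (-0.27, adjusted p = 0.434).

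From day 28 to day 53 the FVB effect grew again for 6 of the 10 genes (13.7% of all genes were called higher). The gain was 2.98 ± 0.46 for Cd14 (adjusted p = 5.18e-06), 2.41 ± 0.39 for Tlr2 (adjusted p = 1.43e-05) and 2.16 ± 0.44 for Tlr1 (adjusted p = 0.000248). It was 1.25 ± 0.45 for Tlr7, 0.90 ± 0.33 for Tlr4 and 0.90 ± 0.22 for Pycard (adjusted p = 0.0349, 0.0405 and 0.00208). Casp1 did not pass (0.86 ± 0.44, adjusted p = 0.158). For Cd14, Tlr2 and Tlr1 the gain was larger in size than the earlier loss, a difference that was not tested. The Tlr4 call was lost without any 1 of 9 arrays: Nx mouse 2, 3 or 8 or sham mouse 1, 2 or 4 of day 28, or Nx mouse 8 or sham mouse 1 or 5 of day 53 (0.70 to 0.92, adjusted p up to 0.121). The Tlr7 call was lost without any 1 of 6: Nx mouse 2 or 3 or sham mouse 4 of day 28, or Nx mouse 7 or 8 or sham mouse 5 of day 53 (0.94 to 1.25, adjusted p up to 0.121). Myd88 (0.58 ± 0.23, adjusted p = 0.0576) passed without Nx mouse 7 or 10 or sham mouse 5 or 6 of day 53 or sham mouse 1 of day 28 (0.64 to 0.75).

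In B6 the change of the effect from day 2 to day 28 passed for 0 of the 10 genes in limma (4.02% of all genes were called lower). At an unadjusted p under 0.05 there were 4 of the 10, and the alternatives called between 0 and 4. The estimates ranged from -1.23 for Cd14 to 0.23 for Tlr4, and the largest falls did not pass (Cd14, adjusted p = 0.0897; Tlr7, -1.15, 0.109; Tlr1, -1.03, 0.147; Pycard, -0.51, 0.159). Without Nx mouse 3 of day 28, the array that stood apart, all 4 of these passed as lower (-1.56, -1.44, -1.37 and -0.72, adjusted p between 0.0108 and 0.0238). Cd14 and Tlr7 also passed without Nx mouse 9 of day 2 (-1.46 and -1.54), and Cd14 without sham mouse 5 of day 28 (-1.49). From day 28 to day 53 limma called 0 of all genes in B6 (0%). At an unadjusted p under 0.05 there were 405 genes, 0 of them among the 10, and the alternatives called between 0 and 987 genes.

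The change from day 28 to day 53 itself differed between the strains for 4 of the 10 genes, all larger in FVB (7.04% of all genes were called higher). The difference was 3.36 ± 0.64 for Cd14 (adjusted p = 0.000461), 2.32 ± 0.55 for Tlr2 (adjusted p = 0.00369), 2.00 ± 0.61 for Tlr1 (adjusted p = 0.0231) and 1.08 ± 0.31 for Pycard (adjusted p = 0.0156). Without B6 Nx mouse 3 of day 28 the difference of Tlr1 was 1.65 and missed the threshold (adjusted p = 0.0544). The differences of Tlr4 (1.26, adjusted p = 0.0631), Tlr7 (1.63, 0.076) and Myd88 (0.73, 0.129) did not pass. Tlr4 passed without any 1 of 6 arrays (1.35 to 1.43), namely Nx mouse 9 or sham mouse 3 of B6 day 28, Nx mouse 1 of B6 day 53, Nx mouse 7 or sham mouse 3 of FVB day 28, and sham mouse 6 of FVB day 53. Tlr7 passed without FVB Nx mouse 10 of day 53 (1.87, adjusted p = 0.0357) and Myd88 without FVB sham mouse 6 of that day (0.90, 0.0455).

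In sham kidneys, 4 of the 10 genes differed between the strains over the 3 days. Tlr2 was higher in FVB by 0.51 ± 0.16 (adjusted p = 0.0123; 16.9% of all genes were called higher). Pycard (-0.59 ± 0.09; adjusted p = 1.06e-06), Tlr1 (-0.61 ± 0.18; adjusted p = 0.00638) and Myd88 (-0.42 ± 0.09; adjusted p = 0.000454) were lower in FVB (15.6% of all genes were called lower). All sham arrays of Myd88 lay at or under the recurring 6.70, so that what its difference measures is uncertain. For Tlr2, 20 of 24 sham arrays lay at or under the recurring 6.22, so its difference is uncertain too. For Pycard, the FVB sham arrays read 7.55 to 7.87 at days 28 and 53 and the B6 sham arrays 7.98 to 8.57. The level that FVB Pycard reached after nephrectomy at day 28 (8.03, 8.10, 8.27 and 8.46) was thus within the range of those B6 sham kidneys. By the second probe set of Pycard, at recurring low values, the sham difference was 0.00 (adjusted p = 0.991) and did not pass. The other 6 genes did not pass, Cd14 among them (0.33 ± 0.19; adjusted p = 0.18).

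Ordered by group mean, the highest group was FVB Nx at day 53 for Cd14, Tlr2 and Myd88, B6 Nx at day 2 for Pycard, and FVB Nx at day 2 for the other 6 genes. The Cd14 means went from 11.41 ± 0.33 (SD, n = 4) in FVB Nx day 53 to 10.57 ± 0.41 in FVB Nx day 2, 9.41 ± 0.49 in B6 Nx day 2 and 8.68 ± 0.56 in FVB Nx day 28. Each of these steps exceeded the larger SD of its neighbours, as did the next, to 7.77 ± 0.67 in B6 Nx day 28. B6 Nx day 28 and B6 Nx day 53 (7.65 ± 0.48) did not differ beyond their spread. For Tlr2 the steps from 9.12 ± 0.37 in FVB Nx day 53 to 7.82 ± 0.36 in FVB Nx day 2 and 6.80 ± 0.50 in B6 Nx day 2 exceeded the SD, and the steps down to FVB sham did not. Casp1 stepped beyond the SD from 8.61 ± 0.58 in FVB Nx day 2 to 7.47 ± 0.31 in FVB Nx day 53 and 6.71 ± 0.60 in B6 Nx day 2, after which B6 Nx day 28, FVB Nx day 28 and B6 Nx day 53 were not separated.

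For Tlr7 the steps from FVB Nx day 2 (5.26 ± 0.88) to B6 Nx day 2 (4.09 ± 0.85) and from FVB Nx day 53 (4.01 ± 0.71) to B6 Nx day 28 (3.08 ± 0.60) exceeded the SD, and no step under 3.08 did. Tlr4 was alike in FVB Nx day 2 (7.45 ± 0.31) and FVB Nx day 53 (7.37 ± 0.21), with a step beyond the SD to B6 Nx day 28 (6.70 ± 0.33). Tlr1 had no step beyond the SD among the 6 Nx groups, from 7.69 ± 0.23 in FVB Nx day 2 down to 5.47 ± 0.50 in FVB Nx day 28. Tlr3 was set apart in FVB Nx day 2 (8.27 ± 0.19) from B6 Nx day 2 (7.81 ± 0.06). Pycard was alike in B6 Nx day 2 (9.99 ± 0.24) and FVB Nx day 2 (9.95 ± 0.35), with a step to FVB Nx day 53 (9.23 ± 0.21). Myd88 and Nlrp3 had 0 of 11 steps beyond the SD.

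Over the 12 group means, which share arrays and overall surgery effect, the most alike of the 9 genes other than Nlrp3 were Tlr4 and Casp1 (Pearson r = 0.956), Tlr3 and Casp1 (0.954) and Tlr2 and Cd14 (0.942). The lowest correlation involving Tlr2 was with Pycard (0.549). Among all genes tested, the patterns most like Cd14 were those of Ccm2 (0.991), Snx5 (0.989) and Nras (0.988). Most like Tlr2 were Mex3d (0.988), Pea15a (0.981) and Bcl3 (0.980), and most like Tlr1 were Rhoj (0.998), Lox (0.993) and Basp1 (0.989). Tlr7 was most like Cd300a (0.995), and Tlr3 most like Ifi35 (0.989). Casp1 was most like Naalad2 (0.985), Pycard most like Mdfic (0.980), Tlr4 most like Pld2 (0.985) and Myd88 most like Grk3 (0.978). These correlations are descriptions of 12 points.

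The wider pathways were followed through 9 lists, of which 67 of 89 genes were measured. Of these 67, 45 rose and 9 fell in FVB at day 2, 10 and 1 at day 28, and 38 and 7 at day 53. In B6, 30 rose and 7 fell at day 2, 15 and 2 at day 28, and 14 and 1 at day 53. The Nx effect at day 53 was larger in FVB for 26 of the 67 and smaller for 3. Of all genes, 30%, 8.81% and 27.8% were called lower in FVB at days 2, 28 and 53, and 24.4%, 9.14% and 6.68% in B6. For the strain difference at day 53, 14.9% were called lower. The shares called higher are those given above. Unlike the main counts, which leave out Nlrp3, these list counts keep genes that passed the filter through few arrays. Aim2 lay at or under the filter value on 44 arrays and Tlr6 on 41, and both were called higher in FVB at day 2. Such genes are tested only because some arrays are high, so their rises are not independent of the filter.

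Among ligands released by injured tissue, 5 of 7 measured rose and 1 fell at day 2 in each strain, and in FVB at day 53 4 rose and 2 fell. The median change was 3.80 in FVB and 3.27 in B6 at day 2, against -0.03 and -0.02 over all genes. Biglycan (Bgn), a matrix proteoglycan that binds Tlr2 and Tlr4, rose 3.96-fold, 2.10-fold and 5.21-fold in FVB at days 2, 28 and 53, and 3.15-fold, 2.78-fold and 2.80-fold in B6. Its Nx effect at day 53 was larger in FVB by 0.90 ± 0.28 (adjusted p = 0.0125). Tenascin-C (Tnc), a matrix protein that activates Tlr4, rose 13.9-fold in FVB and 12.1-fold in B6 at day 2.

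Of the other Toll-like receptors, 3 of 7 were measured. Tlr13, the receptor for bacterial ribosomal RNA in mice, rose 19.5-fold, 3.82-fold and 15.1-fold in FVB at days 2, 28 and 53 and 11.5-fold, 4.88-fold and 3.31-fold in B6. Its effect at day 53 was larger in FVB by 2.19 ± 0.65 (adjusted p = 0.00894). Tlr12 fell to 0.466, 0.512 and 0.632 of sham in B6 at the 3 days and did not pass in FVB, where sham arrays read 2.54 to 2.59, against 3.06 to 4.45 in B6 sham. That sham difference was -1.06 ± 0.09 (adjusted p = 3.99e-13). Tlr6 was called higher in FVB at day 2, at least 1.71-fold, from sham values at the lowest one. It lay at or under the filter value on 41 arrays and was tested only through the few above it. The Tlr6 call is therefore not independent of the filter. Among receptor partners, 6 of 9 rose in FVB at day 2 and 4 rose and 1 fell at day 53 (median 0.87 and 0.08), against 3 and 2 in B6 (0.33 and 0.05). Lbp, which carries lipopolysaccharide to Cd14, rose 14.0-fold in FVB and 3.53-fold in B6 at day 53, with a difference of 1.99 ± 0.45 (adjusted p = 0.000858). Ly96, the subunit of Tlr4 that binds lipopolysaccharide, rose 2.30-fold in FVB at day 53, and its effect was larger there than in B6 by 1.15 ± 0.34 (adjusted p = 0.00851). Ly96 was also lower in FVB than in B6 sham kidneys by 2.07 on the log2 scale (-2.07 ± 0.14; adjusted p = 7.71e-16).

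Of 13 measured adaptors and kinases, 6 rose and 1 fell in FVB at day 53 (median 0.15), with a median of 0.01 in B6. The kinase Ikbke rose 3.35-fold at day 2 and 2.43-fold at day 53 in FVB and 2.15-fold at day 2 in B6. Of 6 measured transcription factors, 5 rose in FVB at day 53 and 2 in B6 (median 0.97 and 0.12). Relb, an NF-kB subunit, rose 10.5-fold in FVB and 2.05-fold in B6 at day 53, a difference of 2.36 ± 0.42 (adjusted p = 4.37e-05). Irf7, an interferon regulator, lay at or under 2.21 in FVB sham kidneys of day 2 and between 4.53 and 5.73 in Nx, at least 6.84-fold higher (adjusted p = 1.29e-17). It did not pass in B6 on that day (adjusted p = 0.0649), where Nx arrays read 2.21 to 2.95. The mean of Irf7 over 48 arrays was 2.52, so the gene lay near the lowest values on most of them. The FVB p-value of day 2 uses a spread estimated over all 12 groups (SE 0.15). That p-value can understate the spread of the FVB Nx arrays.

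Among 7 measured inhibitors, 4 rose and 3 fell in FVB at day 2, and 3 rose and 2 fell at day 53 (median 1.08 and 0.13). Tnfaip3, which encodes A20, a brake on NF-kB, rose 8.53-fold in FVB at day 53, and its effect was larger than in B6 by 2.39 ± 0.39 (adjusted p = 1.12e-05). Sigirr, an inhibitory receptor, fell to 0.404 of sham in FVB and 0.492 in B6 at day 2. Of 5 measured sensors of other inflammasomes, Naip2 rose 4.03-fold in FVB and 2.30-fold in B6 at day 2. Nlrp6 fell to 0.377 of sham in FVB and 0.343 in B6 on that day, and in FVB to 0.364 at day 53.

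Of 10 measured inflammasome regulators and effectors, 8 rose and 1 fell in FVB at day 2, and 8 rose at day 53 (median 1.30 and 0.99). In B6, 7 rose at day 2 and 3 at day 53 (median 0.82 and 0.12). Casp4, the caspase that senses lipopolysaccharide in the cytosol, rose 8.06-fold in FVB and 3.97-fold in B6 at day 2. Gsdmd, whose product forms pores when cut by caspases, rose 3.97-fold in FVB at day 2, with a larger effect than in B6 by 1.21 ± 0.32 (adjusted p = 0.0204). Il1b, a substrate of caspase-1, rose 5.48-fold in FVB at day 2 and 5.39-fold at day 53, and its effect at day 53 was larger than in B6 by 2.18 ± 0.57 (adjusted p = 0.00327). Il18, the other substrate, rose 2.14-fold, 1.92-fold and 2.06-fold in B6 at the 3 days. In FVB it rose 2.28-fold at day 2 and 2.15-fold at day 53 and did not pass at day 28 (1.39-fold, adjusted p = 0.233). Il18 was already higher in FVB than in B6 sham kidneys by 1.03 ± 0.15 (adjusted p = 4.13e-07).

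Among target cytokines, 6 of 7 measured rose in FVB at days 2 and 53, and 5 and 4 in B6. The median change at day 53 was 4.33 in FVB and 1.36 in B6, against -0.01 in each over all genes. The chemokines Ccl5, Ccl2, Cxcl1 and Cxcl2 rose 57-fold, 42.3-fold, 24.9-fold and at least 19.2-fold in FVB at day 53, Cxcl2 from sham values under 2.28. Their effects at day 53 exceeded those in B6 by 3.13 to 3.68 on the log2 scale, with adjusted p from 8.41e-05 to 0.000282.

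Markers of several cell types moved with the 10 genes. Of all genes, 24.8%, 7.35% and 25.9% were called higher in FVB at days 2, 28 and 53, and 20.2%, 9.85% and 8.03% in B6. Of 12 markers of monocytes and macrophages, 11 were measured, and 11, 7 and 11 of them rose in FVB at days 2, 28 and 53, against 11, 9 and 9 in B6. Their mean level per array ran from 5.71 to 7.20 in FVB sham and 6.00 to 7.27 in B6 sham kidneys. In Nx kidneys it ran from 9.44 to 10.67, 7.58 to 8.43 and 9.23 to 9.71 in FVB at days 2, 28 and 53, and from 8.85 to 10.12, 8.17 to 10.05 and 8.19 to 8.76 in B6. The 10.05 belongs to mouse 3 of B6 Nx day 28, whose means for dendritic cell markers (6.13) and T cell markers (4.84) were also the highest of its group. Of the defining markers, Itgam was at or under the filter value on 20 of 48 arrays, and of 8 neutrophil markers only Csf3r was measured, at or under it on 37 arrays.

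All 6 markers of mesangium and fibroblasts were measured, and 6, 5 and 6 rose in FVB at days 2, 28 and 53 and 5 on each day in B6. Their mean ran from 8.45 to 9.75 in FVB sham and 8.68 to 10.05 in B6 sham kidneys. In Nx it ran from 11.80 to 12.43, 10.46 to 11.03 and 11.08 to 11.33 in FVB, and from 11.33 to 12.13, 10.71 to 11.997 and 10.46 to 11.00 in B6. Of 3 measured markers of B and plasma cells, 3 rose in FVB at day 53, where the mean ran from 7.25 to 9.30 against 4.87 to 5.22 in sham, and 2 in B6. These markers were Cd79b, Jchain and Sdc1. Sdc1 read at least 7.305 on every array, sham included, and so raises the mean in sham kidneys too, while Cd79b had a median of 2.57. Some tubular and podocyte markers moved the other way. The shares of all genes called lower were 30%, 8.81% and 27.8% in FVB at days 2, 28 and 53. In B6 they were 24.4%, 9.14% and 6.68%. Of 6 proximal tubule markers, 5 fell in each strain at day 2, and 5 in FVB and 3 in B6 at day 53. Of 5 markers of the loop and distal tubule, 5 fell in each strain at day 2, and 5 in FVB and 1 in B6 at day 53, where the FVB Nx mean was 10.22 to 11.22 against 13.01 to 13.08 in sham. Of 4 podocyte markers, 2 fell in each of the 6 comparisons. The adrenal marker Star read 10.41 and 11.09 in mice 10 and 8 of FVB Nx day 53, and 5.04 and 3.12 in mice 4 and 7. The mean of 4 skeletal muscle markers was 7.70 and 5.64 in mice 7 and 8 of that group, and 2.2 in mice 10 and 4. It was 5.51 in mouse 3 of FVB Nx day 28 and at most 3.54 on sham arrays. The part of these cells in the changes of the 10 genes was not tested.

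**Figure D4:**
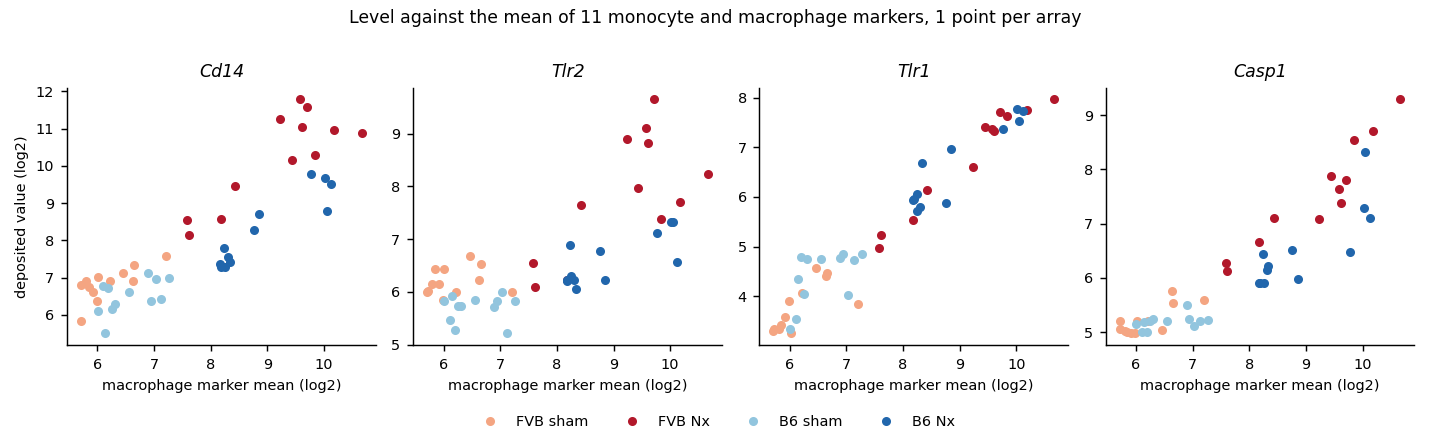
Deposited log2 value of Cd14, Tlr2, Tlr1 and Casp1 (vertical axes) against the mean of 11 monocyte and macrophage markers (log2, horizontal axis), with 1 point per array coloured by strain and surgery. The FVB Nx arrays of day 53 reach 11.78 for Cd14, 9.65 for Tlr2, 7.71 for Tlr1 and 7.80 for Casp1, with marker means between 9.23 and 9.71.

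The ratio of Gapdh 3' to 5' probe sets, a sign of RNA quality, had group medians between 0.09 and 0.25 in sham and between 0.15 and 0.29 in Nx kidneys on the log2 scale. At day 2 the ratio was higher on all Nx arrays than on all sham arrays of the same strain. It ran from 0.227 to 0.451 against 0.135 to 0.191 in FVB, and from 0.235 to 0.417 against 0.082 to 0.191 in B6. The ranges overlapped at days 28 and 53. The part of RNA quality in the results was not tested.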

How the data were processed

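Whole-kidney RNA of 48 mice, 12 groups of 4, was measured on Affymetrix arrays. The authors deposited log2 values for 45101 probe sets, and MAS5 is named, with no role, in the submitters' processing notes. Background correction and normalisation are not given in the sources used here, and the values were used as deposited. Of these values 32.1% equal the lowest, 2.20.

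Probe sets with 1 gene symbol were kept when above the 40th percentile of all values (2.28) on at least 4 arrays. Of the kept probe sets of a gene, the one with the highest mean stood for it, leaving 13174 genes. limma 3.58.1 in R 4.3.3 fitted 12 group means with no intercept (eBayes with trend), two-sided, with Benjamini-Hochberg adjustment over all genes and a threshold of 0.05. On simulated data 91% of 100 genes changed 2-fold and 96% of 100 changed 4-fold were recovered for FVB day 2, with 10 false calls among 13174 genes. In the deposited data 24.8% of genes were called higher and 30% lower in that comparison. Recovery was not tested separately for genes at recurring low values or with unequal spread between groups.

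Same-numbered mice of a strain and day formed 10 pairs, with correlations of deviations from -0.251 to 0.378 and 5 above 0.1. Differently numbered Nx and sham mice of a strain and day ran from -0.577 to 0.469. No label says that the numbers link animals, and the main fit did not treat them as paired. The alternatives tried were other normalisations, filters, probe sets, weights and arrays left out. Folds are lower bounds where all sham arrays lie at or under the filter value, or under a recurring value within 0.15 of the gene's lowest (2.54 for Tlr7), a distance chosen after seeing the data. Other recurring values were not used as bounds. The genes, lists and rules were chosen with earlier results of these data known. Named were the 10 genes, up to 4 called genes per pathway list and comparison by smallest p, and the 3 genes most like each of the 10.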

Additional observations from a re-analysis of the deposited data

Results flagged for a closer look

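An array of 4 lay far from the other 3, by Dixon's criterion, in 22 of 120 sets of gene and group. The rate of 1 in 20 for this criterion holds for independent, normally distributed values. It does not apply here, since values recur and sets share arrays. Mouse 3 of B6 Nx day 28 was such an array for 6 genes. It read 7.33 for Tlr2 (others 6.06 to 6.23), 3.97 for Tlr7 (2.69 to 2.90), 8.78 for Cd14 (7.36 to 7.55), 7.31 for Myd88 (all 6.70), 8.32 for Casp1 (5.90 to 6.21) and 9.72 for Pycard (8.82 to 8.90).

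The other Nx arrays that stood apart were high for Tlr4 in FVB day 53 mouse 8 (7.69) and B6 day 53 mouse 1 (6.79), and for Nlrp3 in FVB day 28 mouse 7 (2.30), FVB day 53 mouse 10 (2.72) and B6 day 2 mouse 3 (2.85). They were low for Tlr3 in B6 day 28 mouse 9 (7.20) and for Myd88 in FVB day 28 mouse 2 (6.35).

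Among sham arrays, Tlr1 was low in B6 day 2 mouse 1 (4.02) and B6 day 28 mouse 5 (4.35), Myd88 in B6 day 2 mouse 2 (6.55) and B6 day 53 mouse 3 (6.68), and Nlrp3 in B6 day 2 mouse 4 (2.20). Tlr7 was high in B6 day 28 mouse 1 (3.07), and differed only within its recurring low values in FVB day 2 mouse 2 (2.54), FVB day 53 mouse 1 (2.47) and B6 day 2 mouse 4 (2.47).

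The strains differed in their Nx effect by the limma test of the difference itself. The FVB effect was larger by 1.23 for Tlr4 and 1.57 for Casp1 at day 2. At day 53 it was larger by 3.75 for Cd14, 2.00 for Tlr2, 1.87 for Tlr1, 1.50 for Tlr7, 1.40 for Casp1, 1.07 for Tlr4, 0.99 for Myd88 and 0.97 for Pycard. The Myd88 sham arrays of both strains lay at or under the recurring 6.70. The change of the effect from day 28 to day 53 was larger in FVB by 3.36 for Cd14, 2.32 for Tlr2, 2.00 for Tlr1 and 1.08 for Pycard.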

How the results depend on the processing

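Over 150 results for single genes, 3432 of 3690 alternative values kept their direction and their side of the threshold, 133 lost a call, 64 gained one, 58 values without a call moved and 3 reversed. The 3 that reversed were all without the arrays with pancreatic transcripts: the strain difference of the Nx effect was -0.60 for Nlrp3 at day 2 and -2.07 for Casp1 at day 28, and the B6 change of Casp1 from day 2 to day 28 was 1.90. The cause was not tested, and B6 Nx day 28 then holds 1 array, mouse 3.

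Without those arrays the 10 genes gave 2 calls (635 over all genes) in FVB day 28, 3 in B6 day 53, 4 (1003) for the strain difference at day 28, 2 for the B6 change from day 2 to 28, 3 (987) for that from day 28 to 53 and 8 (3679) for the strain difference in that change. With only the arrays compared there was 1 call (839 over all genes) in B6 day 28 and 1 (324) for the strain difference at day 2, and 3 genes in all for that at day 28. Array weights gave 3288 genes in B6 day 53, 30 for the strain difference at day 28, and 4 of the 10 (2521 genes) for the B6 change from day 2 to 28. With no filter there was 1 call for the strain difference at day 2 and 1 gene in all for the B6 change from day 28 to 53. With means above 4 there were 9 genes for the strain difference at day 28.

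Without 1 array in turn, the 10 genes gave 2 to 5 calls in B6 day 53, 0 to 3 for the strain difference at day 2 and 0 to 4 for the B6 change from day 2 to 28. Over all genes the calls ran from 1537 to 2615 in B6 day 28, 343 to 951 and 11 to 24 for the strain difference at days 2 and 28, and 0 to 1 for the B6 change from day 28 to 53.

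With the mouse number as a replicate block (correlation 0.1264), 8 of the 10 passed for the FVB change from day 2 to day 28 in place of 7, Tlr3 being added (-0.56, adjusted p = 0.0369), and Tlr4 passed for the strain difference in the change from day 28 to 53 (1.28, adjusted p = 0.0471). No other call of the 10 changed under the block. Genes at recurring low values, Nlrp3 and sham Tlr7, are limited by signal over background.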
